A study of Mus musculus with 30 samples.

Results

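Genes of the blood and lymphatic endothelium, the cells that line the vessels, were followed in RNA-seq of the mouse colon. The group comprised 33 genes of 46078 in the count table, chosen by name as known endothelial genes and matched by gene symbol and identifier, and all 33 had a row. They fell into junction and surface proteins (10 genes), receptors for growth factors and guidance cues (8), G protein-coupled receptors with a partner protein (4), secreted proteins and an enzyme (4), transcription factors (5) and lymphatic surface proteins (2). Colon tissue came from 30 mice of the C57BL/6J strain, 6 in each of 5 groups and 1 library a mouse. The groups were females (CD F) and males (CD M) on a control diet with 10% of its energy from fat, females (HFD F) and males (HFD M) on a high-fat diet with 60%, and HFD males given estradiol (HFD+E2 M). Mice were 5 to 6 weeks old when obtained, were fed for 13 weeks and received 9 intraperitoneal injections during the last 3 weeks. The injection was vehicle in the first 4 groups and estradiol, at 0.5 mg/kg body weight, in HFD+E2 M. The mice carried no engineered allele, and the females had their ovaries.

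Endothelial cells are held together by VE-cadherin, claudin-5 and related junction proteins, and signals through the VEGF and Tie receptors set how vessels grow, leak and persist. Lymphatic vessels drain fluid, immune cells and absorbed fat from the gut wall, and depend on the transcription factor PROX1 and on the receptor VEGFR3. ERG, ETS1 and the SOX F factors drive many endothelial genes.

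The libraries held 8667177 to 17243712 counts on genes (median 11530915), of which mitochondrial genes took 26.1% to 38.0%. All 10 colon epithelium markers were found, with a summed level of 3844 to 6256 TPM (a unit scaled to library size and gene length), though Cdx2, a transcription factor of the intestine, was at 0 in 5 libraries. Genes of stratified squamous epithelium, which lines skin and the anal canal, summed to 5.20 to 1342 TPM in HFD F and 1.86 to 403 TPM in HFD M. In the other groups they stayed between 2.86 and 13.5 TPM. The part of these cells in the values below was not tested.

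The endothelial genes were low in the colon tissue. Averaged over the 30 libraries, the highest was Lyve1, a hyaluronan receptor of lymphatic endothelium, at 12.9 TPM, followed by Mmrn1, a secreted multimerin of lymphatic vessels, at 12.2 TPM. Ecscr, a surface regulator of endothelial migration, averaged 11.0 TPM, and Pecam1, the junction protein CD31, 10.6 TPM. The lowest were Nos3, the endothelial nitric oxide synthase, at 0.240 TPM, and the transcription factors Sox17 (0.361 TPM) and Sox18 (0.418 TPM). Sox18 had 0 to 12 counts a library and no count in 1 library. Sox17 had 3 to 30 counts, and both were mostly too low to test. Depth therefore limited these transcription factors far more than Ptprb, which had 163 to 559 counts a library.

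By the mean TPM of each group, 15 of the 33 genes were highest in CD M, 13 in HFD M, 4 in HFD+E2 M, 1 in HFD F and 0 in CD F. CD F was the lowest group for 23 genes, HFD+E2 M for 6 and HFD F for 4. The same ranks over all genes were not counted. On TPM the median of all genes itself moved, by -0.11 on the log2 scale for CD F versus CD M. It moved by -0.05 for HFD F versus HFD M and by -0.16 for HFD+E2 M versus HFD M. Of the 33 genes, 28 lay below that median for CD F versus CD M and 26 for HFD F versus HFD M. Summed over the 33 genes, the level was 110 ± 19.2 TPM (SD, n = 6) in CD F and 149 ± 26.4 TPM in CD M. It was 120 ± 18.8 TPM in HFD F, 149 ± 22.7 TPM in HFD M and 131 ± 16.8 TPM in HFD+E2 M. Both male groups on vehicle thus had higher mean sums than both female groups, with overlap between libraries, and the next paragraphs give the genes behind them.

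Promoter sequence was examined for what the genes share. RefSeq promoters of build GRCm38.p6 matched 16 of the 33 genes, and the 250 bases before each start were searched on both strands. GGAAG, taken here as the core of ETS factor sites, was present in 13 of 16, and in 66.9% of the promoters of all 27025 genes in the table. ACAAT, taken as the core of SOX sites, was present in 8 of 16 (30.9% of all) and a FOX site, TGTTTAC, in 1 of 16 (3.54% of all). The full palindrome of the estrogen response element was in 0 of 16 and in 18 promoters of all genes, and GGTCA, 1 arm of it, was in 8 of 16 (38.4% of all). A match is only a match of letters, and shorter or variant forms of these sites were not searched. The 200 bases before the start are shown for Flt1 and Tek, the genes with the smallest p-values between the sexes on CD and on HFD, with ETS and SOX cores in capitals, on the strand of the gene. For Flt1 this is chr5:147726012-147726211 on the minus strand, just upstream of the gene at chr5:147561604-147726011, and for Tek chr4:94739089-94739288 on the plus strand, just upstream of chr4:94739289-94874976.
Flt1: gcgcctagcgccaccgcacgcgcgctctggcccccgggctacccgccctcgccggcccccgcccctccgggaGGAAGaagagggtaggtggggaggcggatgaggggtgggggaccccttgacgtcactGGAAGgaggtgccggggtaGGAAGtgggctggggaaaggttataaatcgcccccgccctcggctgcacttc
Tek: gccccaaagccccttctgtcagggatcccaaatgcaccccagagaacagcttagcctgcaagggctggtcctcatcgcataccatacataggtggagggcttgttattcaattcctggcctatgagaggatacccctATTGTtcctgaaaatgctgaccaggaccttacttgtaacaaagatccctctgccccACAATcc
In Flt1 the 3 ETS cores began 128, 71 and 52 bases before the start, and no SOX core was found in this window. In Tek there were 2 SOX cores, at 63 (on the other strand, where it reads ATTGT) and 7 bases before the start, and no match to GGAAG. The 2 windows thus shared neither of these exact strings, which says nothing of variant ETS or SOX sites.

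Females and males on CD were compared first, as the study asked how the colon differs between the sexes. Of the 31 endothelial genes tested, 28 had a fold change below 0, meaning a lower level in females, against 7130 of all 14922 genes tested. Their median log2 fold change was -0.42, and that of all genes was 0.01. All genes, here and in the comparison of the sexes on HFD, included those of the X and Y chromosomes. A gene was called a DEG at the threshold of the study, read here as p under 0.05 before adjustment and a fold change beyond 0.4 on the log2 scale, up or down. By this rule 15 of the 31 were DEGs, all of them lower in females, whereas 9.15% of all genes were DEGs and 6.21% were DEGs lower in females. With p-values adjusted over all genes tested (edgeR, Benjamini-Hochberg), 3 were called, against 2.92% of all genes in either direction and 2.14% lower in females. DESeq2 called 4, against 2.8% of all genes with a p-value in that test. These 3 were Flt1, Cdh5 and Lyve1. RNA from whole tissue cannot tell fewer endothelial cells apart from less RNA per cell.

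**Figure D1:**
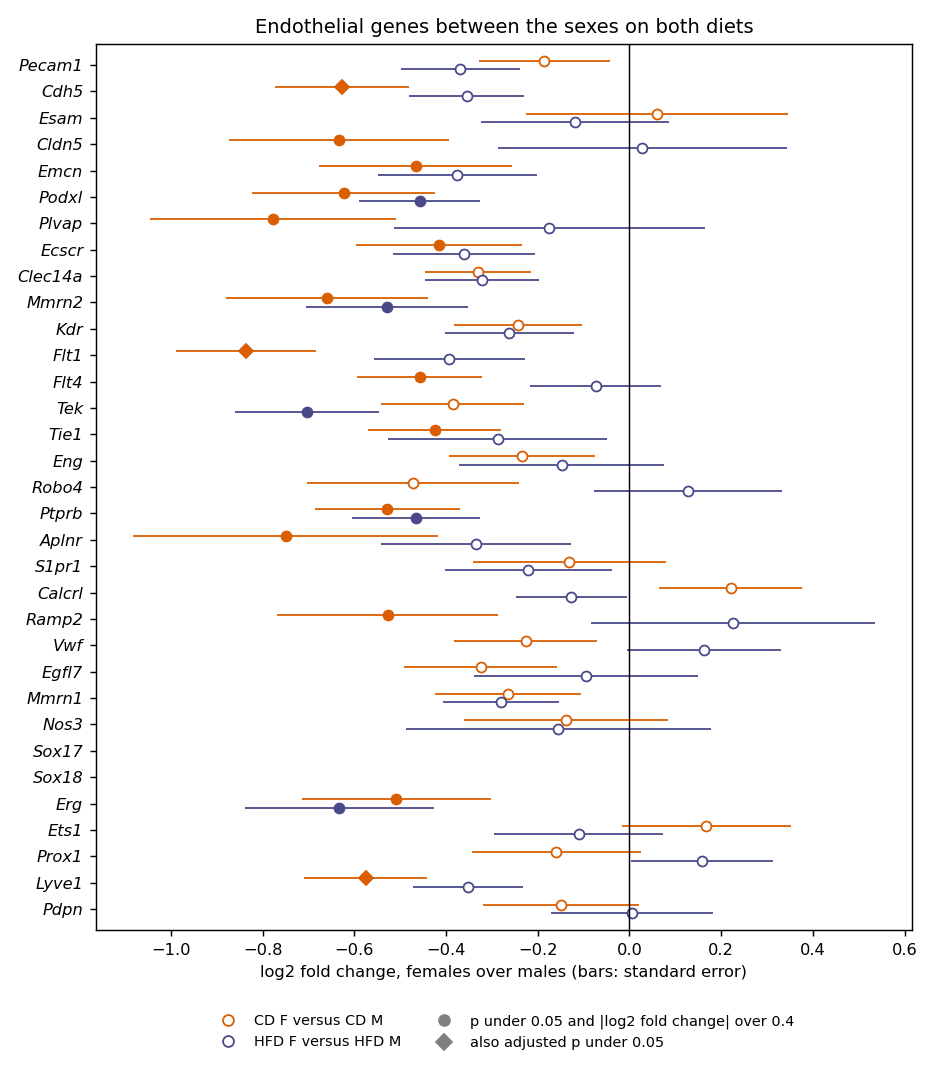
Log2 fold change of each endothelial gene, females over males, on CD (orange) and on HFD (purple), with bars for the standard error. Filled symbols passed the threshold of the study, and diamonds also an adjusted p-value under 0.05. On CD 28 of 31 tested genes lie left of 0, and on HFD 25 of 31 (Sox17 and Sox18 were not tested).

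Among the receptors, all 8 had fold changes below 0 on CD (median -0.44) and 4 were DEGs. Flt1, whose promoter with 3 ETS cores is printed above, encodes VEGFR1, a receptor that binds VEGF-A and limits its action. Its CPM (counts scaled to library size, with TMM factors) were 5.603 at the lowest, 7.03 at the median and 7.72 at the highest in CD F, and 8.97, 12.6 and 16.4 in CD M. Every CD female was below every CD male. The log2 fold change was -0.84 (SE 0.15, adjusted p = 0.00686), a level 0.560 times that of males. Flt4 encodes VEGFR3, the receptor for VEGF-C on lymphatic vessels. It ranged from 6.85 through a median of 10.2 to 10.9 CPM in CD F and from 10.4 through 13.2 to 16.5 CPM in CD M, and 5 of the 6 females were below every male (log2 fold change -0.46, SE 0.14, adjusted p = 0.0848). Tie1, the orphan partner of the angiopoietin receptor, had 3.08, 4.23 and 5.13 CPM in CD F and 5.02, 5.70 and 6.60 CPM in CD M, with an overlap of 1 library on each side (-0.42, SE 0.15, adjusted p = 0.147). Ptprb, the phosphatase VE-PTP that restrains Tie2 and VE-cadherin signaling, had 17.1, 21.5 and 33.9 CPM in CD F and 26.6, 30.8 and 39.9 CPM in CD M. A single CD female lay among the males for Ptprb, and the other 5 were below all of them (-0.53, SE 0.16, adjusted p = 0.0906). The other receptors were not DEGs: Kdr (VEGFR2) was at -0.24, Tek (Tie2) at -0.39, the TGF-beta co-receptor Eng at -0.23 and the guidance receptor Robo4 at -0.47.

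Of the 10 junction and surface genes, 9 had fold changes below 0 on CD (median -0.54), and 7 were DEGs. Cdh5 encodes VE-cadherin, the adhesion protein of endothelial junctions. It had 7.15, 9.13 and 10.3 CPM as lowest, median and highest in CD F and 10.04, 14.1 and 16.7 CPM in CD M (log2 fold change -0.63, SE 0.15, adjusted p = 0.0286). Of the females, 4 were below every male. Plvap, which forms the diaphragms of fenestrated capillaries, had 1.26, 2.77 and 3.46 CPM in CD F and 3.47, 3.71 and 7.97 CPM in CD M (-0.78, SE 0.27, adjusted p = 0.150). The 2 groups did not overlap for Plvap, although the highest female and the lowest male nearly met, and the highest male stood apart from the other 5. Groups without overlap occurred for 2 of the 31 genes, Plvap and Flt1, and for 2.18% of all genes.

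The sialomucin Podxl, which lines the luminal surface, had 9.94, 12.2 and 18.5 CPM in CD F and 12.1, 18.2 and 31.5 CPM in CD M (log2 fold change -0.62, SE 0.20, adjusted p = 0.116). Mmrn2, a matrix protein of vessels that binds CLEC14A, had 3.52, 4.59 and 7.002 CPM in CD F and 3.801, 7.70 and 11.1 CPM in CD M (-0.66, SE 0.22, adjusted p = 0.137). Both overlapped between the sexes, and 5 of the 6 males were above every female for Mmrn2. The tight junction protein gene Cldn5 went from a median of 1.43 CPM in CD F (1.03 to 2.67) to 2.51 CPM in CD M (1.62 to 2.81), at a fold change of -0.63 (SE 0.24, adjusted p = 0.201). Endomucin, Emcn, went from 4.31 CPM (3.39 to 5.97) to 6.32 CPM (3.90 to 8.66), at -0.47 (SE 0.21, adjusted p = 0.308). For both genes some females lay among the males. Ecscr went from 7.44 CPM (5.13 to 9.96) to 10.02 CPM (7.31 to 12.7), at -0.42 (SE 0.18, adjusted p = 0.284). Pecam1 (-0.19), Clec14a (-0.33) and the adhesion protein gene Esam (0.06) were not DEGs.

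Lyve1 had 17.9, 20.05 and 26.7 CPM in CD F and 23.1, 32.6 and 37.7 CPM in CD M, and 4 females were below every male (log2 fold change -0.58, SE 0.13, adjusted p = 0.0283). The part of other cells, such as macrophages, in the Lyve1 values was not tested. Pdpn, the mucin-type protein podoplanin, also made by fibroblasts, was at -0.15 and no DEG. Of the transcription factors tested, Erg, which keeps endothelial identity, was a DEG, with 1.20, 1.53 and 2.18 CPM in CD F and 1.99, 2.30 and 2.90 CPM in CD M (-0.51, SE 0.21, adjusted p = 0.239). For Erg, 4 females were below every male. Ets1, which lymphocytes also express, was at 0.17, and Prox1, also made by enteroendocrine cells, at -0.16.

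The apelin receptor gene Aplnr went from a median of 1.55 CPM in CD F (0.794 to 2.96) to 2.53 CPM in CD M (1.41 to 4.78), at -0.75 (SE 0.33, adjusted p = 0.301). Ramp2, the partner that turns CALCRL into an adrenomedullin receptor, went from 1.74 CPM (1.28 to 2.88) to 2.48 CPM (1.85 to 4.13), at -0.53 (SE 0.24, adjusted p = 0.318). Both overlapped between the sexes. Exons of Ramp2 share 1103 of 3301 bases with those of Vps25 on the same strand, so its counts may hold reads of that gene or have lost reads to it. Calcrl itself was at 0.22 and the sphingosine-1-phosphate receptor gene S1pr1 at -0.13. None of the 4 secreted proteins and enzyme were DEGs, though all had fold changes below 0, from -0.32 for Egfl7 to -0.14 for Nos3.

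**Figure D2:**
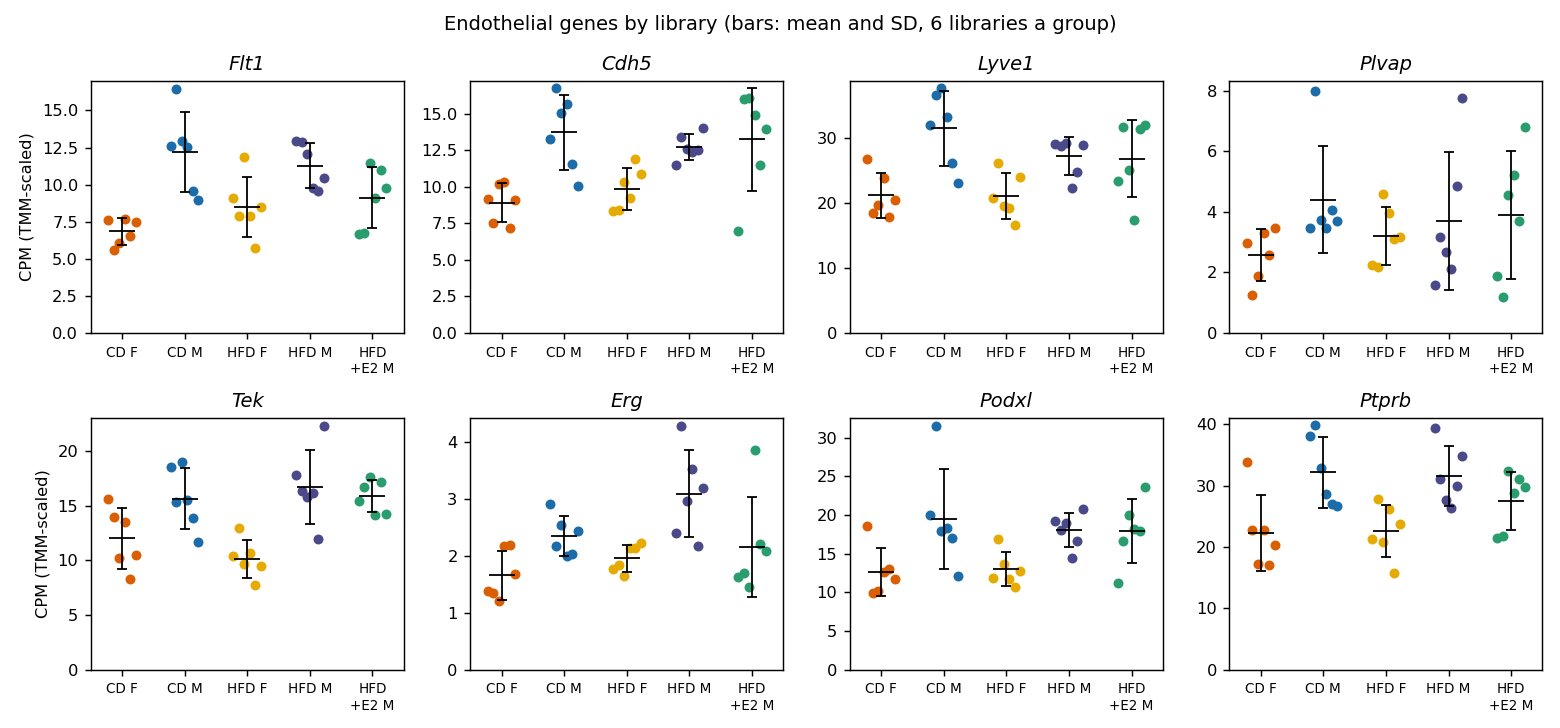
CPM of 8 endothelial genes in each of the 30 libraries, with the mean and SD of each group of 6. For Flt1 and Plvap, the 6 CD F points lie below the 6 CD M points, while for Tek and Erg the HFD F and HFD M points separate except for 1 library on each side.

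The 3 adjusted calls depended on the libraries and the model. Flt1 kept its call when any 1 library was left out. Without CD M replicate 2, the number of DEGs went from 15 to 9 while none turned higher in females, and the number of adjusted calls was 1 without any of CD F replicates 2, 5 and 6 or CD M replicates 2, 3 and 4. It was 5 without CD F replicate 1 and 6 without CD M replicate 6.

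Other cells of the gut wall differed alongside on CD. Smooth muscle genes were lower in CD F for 10 of 10 markers, each a DEG (median -0.61, 6 adjusted calls), and their summed level was 2635 to 4089 TPM in CD F and 4147 to 6888 TPM in CD M. Among them were the actins Actg2 (-0.95, adjusted p = 0.00221) and Acta2 (-0.66, adjusted p = 0.0243). Fibroblast genes had fold changes below 0 for 9 of 10 (median -0.55, 6 DEGs, 4 adjusted calls), at 371 to 734 TPM in CD F and 662 to 1074 TPM in CD M. Among these were the collagen genes Col3a1 (-0.63, adjusted p = 0.00282), Col1a2 (-0.61, adjusted p = 0.00423) and Col6a1 (-0.63, adjusted p = 0.00995). Pericyte and mural genes had them for 7 of 7 tested (median -0.51, 4 DEGs, 4 adjusted calls), at 44.5 to 75.5 TPM in CD F and 75.3 to 106 TPM in CD M. In contrast, all 10 B cell genes had fold changes above 0 (median 1.34, 5 DEGs), at 14.7 to 69.1 TPM in CD F and 0.887 to 55.4 TPM in CD M. The 9 colon epithelium genes tested had fold changes below 0 for 6 of 9 and 1 DEG, with a median near 0.

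The comparison of the sexes on CD was repeated with marker scores as covariates. With the smooth muscle score of each library as a covariate, the median fold change of the 31 endothelial genes on CD was -0.49, with 29 below 0. There were 9 DEGs and 0 adjusted calls among them in that fit, in which 2127 of all 14922 genes were DEGs, compared with 1366 without the score. With the B cell score the median was -0.44, with 29 below 0, 17 DEGs and 0 adjusted calls (874 DEGs among all genes). With the fibroblast score the median was -0.23, with 26 below 0, 0 DEGs and 0 adjusted calls (575 DEGs among all genes). The median was thus closer to 0 than without a score only in the fit with the fibroblast score, of these 3. On CD the fibroblast score (mean log2 CPM of its genes) did not overlap between the sexes. It was at most 6.57 in CD F and at least 6.59 in CD M. The fit with the fibroblast score therefore cannot tell that score apart from sex. The fibroblast and B cell scores were added as covariates after the data had been seen.

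Of 43 further endothelial genes tested on CD, 33 had fold changes below 0 (median -0.25), 12 were DEGs lower in females and 2, the adhesion molecules Icam1 and Vcam1, were DEGs higher in females. Of these genes, Icam1, Vcam1, Rspo3 and Nrp2 are named after their values were seen. The 3 with adjusted calls were Acvrl1, the BMP9 receptor ALK1 (-0.66, adjusted p = 0.0240), Rspo3, a Wnt agonist (-0.68, adjusted p = 0.0306), and Nrp2, a co-receptor for VEGF-C (-0.43, adjusted p = 0.0350). The part of fibroblasts, whose genes were mostly lower in CD F too, in the Rspo3 value was not tested. Of 12 ligands of the endothelial receptors, 7 had fold changes below 0, 2 were DEGs lower in females and 0 passed the adjusted threshold.

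The same contrast on HFD rested on other animals. Of the 31 endothelial genes tested between HFD F and HFD M, 25 had fold changes below 0 (median -0.26, all genes 0.01). There were 5 DEGs, all lower in females, whereas 3.09% of all genes were DEGs and 1.08% were DEGs lower in females. None passed the adjusted threshold in edgeR, which 0.0988% of all genes did. At an unadjusted p-value under 0.05 there were 13 genes, all lower in females, whereas 5.09% of all genes passed in either direction and 2.29% lower in females. DESeq2 gave 1 adjusted call, against 0.179% of all genes with a p-value in that test. Of the 31 genes, 22 had fold changes below 0 on both diets. The 5 DEGs were Tek, Erg, Ptprb, Podxl and Mmrn2, and 4 of them (all but Tek) were DEGs on CD as well. The same overlap was not counted over all genes, so these 4 have no background beside them.

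Tek, whose promoter held 2 SOX cores, encodes Tie2, the angiopoietin receptor that keeps vessels quiescent. It had 7.76, 10.01 and 12.97 CPM as lowest, median and highest in HFD F and 11.9, 16.3 and 22.3 CPM in HFD M, with 5 of the 6 females below every male (log2 fold change -0.70, SE 0.16, adjusted p = 0.214). It stayed a DEG in all 24 alternative fits, with fold changes from -0.84 to -0.60. Erg had 1.65, 1.98 and 2.22 CPM in HFD F and 2.17, 3.07 and 4.26 CPM in HFD M, again with 1 library overlapping on each side (-0.63, SE 0.21, adjusted p = 0.850). Ptprb had 15.8, 22.5 and 27.8 CPM in HFD F and 26.3, 30.6 and 39.5 CPM in HFD M (-0.47, SE 0.14, adjusted p = 0.746). For Ptprb 5 of the females were below every male, as on CD. Podxl had 10.8, 12.4 and 16.97 CPM in HFD F and 14.5, 18.5 and 20.7 CPM in HFD M (-0.46, SE 0.13, adjusted p = 0.746). Mmrn2 had 4.17, 4.42 and 6.24 CPM in HFD F and 4.62, 7.30 and 8.93 CPM in HFD M (-0.53, SE 0.18, adjusted p = 0.872). For both, 4 of the 6 males were above every female.

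The 3 genes with adjusted calls on CD were no DEGs on HFD, since their fold changes were under the minimum. Flt1 was at -0.39 (SE 0.16, unadjusted p = 0.0301), Cdh5 at -0.35 (SE 0.13, unadjusted p = 0.0121) and Lyve1 at -0.35 (SE 0.12, unadjusted p = 0.0100), each with an adjusted p-value of 0.872. For Flt1 and for Cdh5, 5 of the 6 HFD females were below every HFD male. Among genes of the gut wall, smooth muscle had a median of -0.13 with 1 DEG (Actg2, lower in females), fibroblasts 0.08 with 1 DEG (Fbln1, higher) and pericytes -0.01 with 1 DEG (Notch3, higher), names given after their values were seen. Stratified squamous genes had fold changes above 0 for 10 of 10 (median 2.45, 2 DEGs), and T cell genes for 4 of 4 tested (median 0.59, 2 DEGs), and their part in the endothelial values was not tested. Summed smooth muscle levels were 2767 to 4789 TPM in HFD F and 3963 to 6331 TPM in HFD M. The number of endothelial DEGs was 10 without HFD M replicate 4, 8 without HFD F replicate 2 and 8 without HFD F replicate 3. Without HFD M replicate 6, 20 of the 31 genes were below 0 and the median was -0.15.

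Whether the sex difference itself changed with diet was tested as an interaction in the 24 vehicle-treated mice. Of 32 genes tested, 21 had positive terms, meaning a higher ratio of female to male level on HFD than on CD, and 11 negative ones. There were 0 DEGs among them in edgeR, where 5.18% of all genes passed the threshold of the study and 0% the adjusted one, and 0 at an unadjusted p-value under 0.05, which 6.75% of all genes had, or by DESeq2. The smallest unadjusted p-values were 0.0588 for Flt4 (0.38, SE 0.19) and 0.0595 for Flt1 (0.44, SE 0.22). Tek, by contrast, had a negative term of -0.32 (SE 0.23, unadjusted p = 0.168). A difference between the diets was therefore not detectable for any of the genes at this depth and number of mice. The number of DEGs was 4 without HFD M replicate 6, 3 without CD M replicate 6, 2 without any of CD F replicate 6, CD M replicate 5, HFD F replicate 5 and HFD M replicate 2, and 1 or 0 without any other library. The number of negative terms was 7 without CD F replicate 1 and 17 without CD M replicate 2. Beside them, all 10 smooth muscle genes (median 0.51) and all 10 fibroblast genes (median 0.58) had positive terms.

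**Figure D3:**
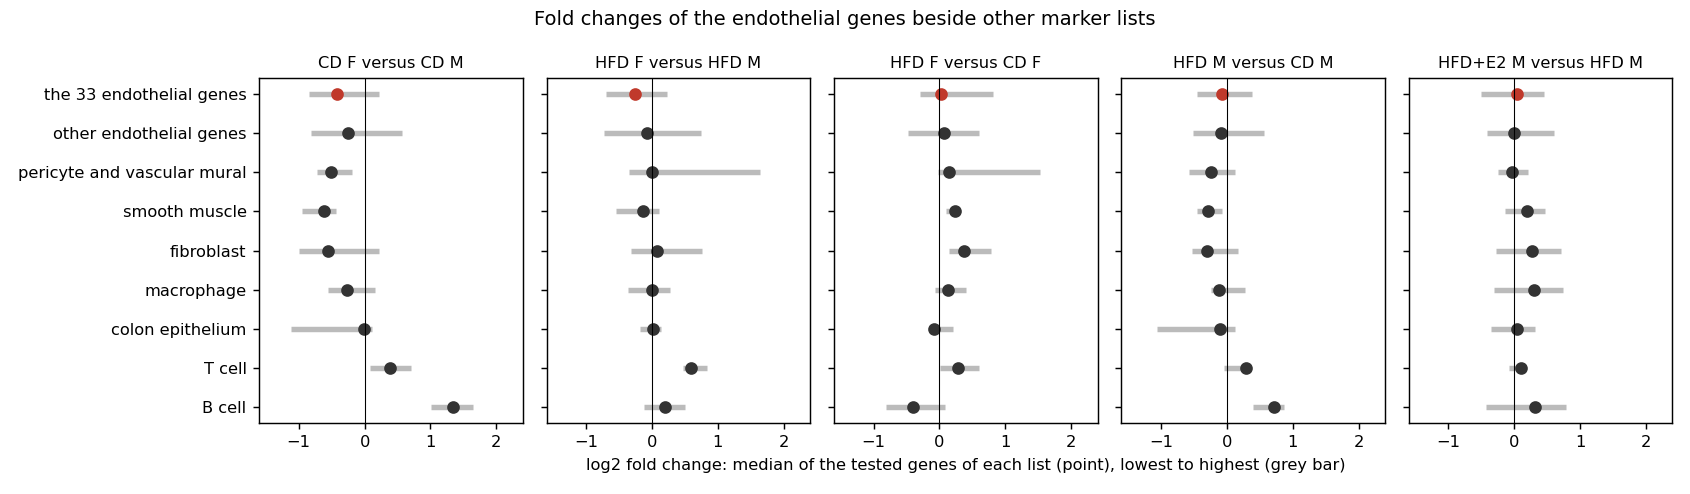
Median log2 fold change (points) and lowest to highest fold change (grey bars) of the tested genes of the endothelial group (red) and of 8 other marker lists in the 5 comparisons of 2 groups. On CD the endothelial median of -0.42 lies beside pericyte, smooth muscle and fibroblast medians of -0.51 to -0.61, whereas on HFD it is -0.26 beside medians of -0.13 to 0.08.

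The effect of estradiol was compared between HFD+E2 M and HFD M. Of the 31 endothelial genes tested, 16 had fold changes above 0 and 15 below, and the median was 0.04. There were 3 DEGs of 31, beside 5.87% of all genes, and a count this small was not set apart from that background. None passed the adjusted threshold in edgeR or DESeq2 (0.00666% of all genes in edgeR), and 3 had an unadjusted p-value under 0.05, as did 10.2% of all genes. Calcrl, the receptor for CGRP and adrenomedullin, had 15.8, 19.2 and 24.9 CPM as lowest, median and highest in HFD+E2 M and 24.2, 27.9 and 30.8 CPM in HFD M. The overlap was 1 library on each side (log2 fold change -0.47, SE 0.13, unadjusted p = 0.00213, adjusted p = 0.454). Calcrl was a DEG in 22 of 24 alternative fits and in each that left out 1 library.

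Aplnr went from a median of 2.90 CPM in HFD M (2.403 to 4.36) to 2.16 CPM in HFD+E2 M (1.45 to 2.82), at -0.50 (SE 0.24, adjusted p = 0.487). Of the E2-treated males, 4 were below every vehicle-treated male. It was a DEG in 9 of 24 alternative fits. Vwf, the von Willebrand factor that captures platelets, went from 14.2 CPM (11.0 to 24.8) to 19.8 CPM (16.7 to 27.0), at 0.45 (SE 0.18, adjusted p = 0.461). The groups overlapped because of 1 vehicle-treated male, replicate 6, at 24.8 CPM, above the other 5 by a wide gap. Vwf was a DEG in 16 of 24 alternative fits. In all, the number of DEGs was 1 without HFD M replicate 1 and 5 without HFD+E2 M replicate 1.

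By role, the 4 secreted proteins and enzyme all had fold changes above 0 with E2 (median 0.29), and 3 of the 4 G protein-coupled receptors and partner had them below 0 (median -0.28). The direction depended on the scale. On TPM the median of all genes moved by -0.16 on the log2 scale with E2, so that 25 of 33 endothelial genes were below 0, but 17 of 33 were below the median of all genes. On that scale 251 of 1845 DEGs among all genes were higher with E2, compared with 395 of 881 on counts. Macrophage genes had a median of 0.29 and fibroblast genes of 0.27 in this comparison. Their part in the endothelial values was not tested beyond the fits with the smooth muscle or the fibroblast score, in which 1 endothelial gene was a DEG.

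The diets were compared within each sex. In females, 18 of 31 endothelial genes had fold changes above 0 with HFD and 13 below (median 0.03). A single gene was a DEG, whereas 3.67% of all genes were, and none passed the adjusted threshold in edgeR or DESeq2 (0.0199% of all genes in edgeR). The same gene was the only 1 with an unadjusted p-value under 0.05, which 5.68% of all genes had. It was Ramp2, with 1.63, 2.61 and 6.23 CPM in HFD F and 1.28, 1.74 and 2.88 CPM in CD F (log2 fold change 0.82, SE 0.32, adjusted p = 0.6996). The call was lost without HFD F replicate 1 or HFD F replicate 4, and the overlap with Vps25 applies here too. There were 2 DEGs without any of CD F replicates 1, 4 and 6 or HFD F replicate 5, and without CD F replicate 1 the number of genes below 0 went from 13 to 7.

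In males, 15 of 32 had fold changes above 0 and 17 below (median -0.07) and 0 were DEGs, whereas 2.9% of all genes were. The adjusted threshold was passed by 0 of them in edgeR, as by 0% of all genes. In DESeq2 it was passed by 0 of them and by 26 of 27703 genes. At the threshold of the study, DESeq2 here called 0 of 33 endothelial genes. The study, which also used DESeq2, lists Ets1 among its HFD-regulated genes in males. In edgeR, 2 of 32 had an unadjusted p-value under 0.05, beside 6.03% of all genes. They were Flt4 (-0.36, SE 0.15, unadjusted p = 0.0281) and Clec14a (0.21, SE 0.10, unadjusted p = 0.0489). Flt4 had 10.4 to 16.5 CPM in CD M and 7.13 to 13.1 CPM in HFD M. There were 4 DEGs without HFD M replicate 6, and 1 without any of CD M replicates 1 and 6 or HFD M replicates 1 and 5. The comparison of the diets in males, like that of E2 and that of the sexes on HFD, used the HFD M libraries, so a high or low value there enters all 3.

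**Figure D4:**
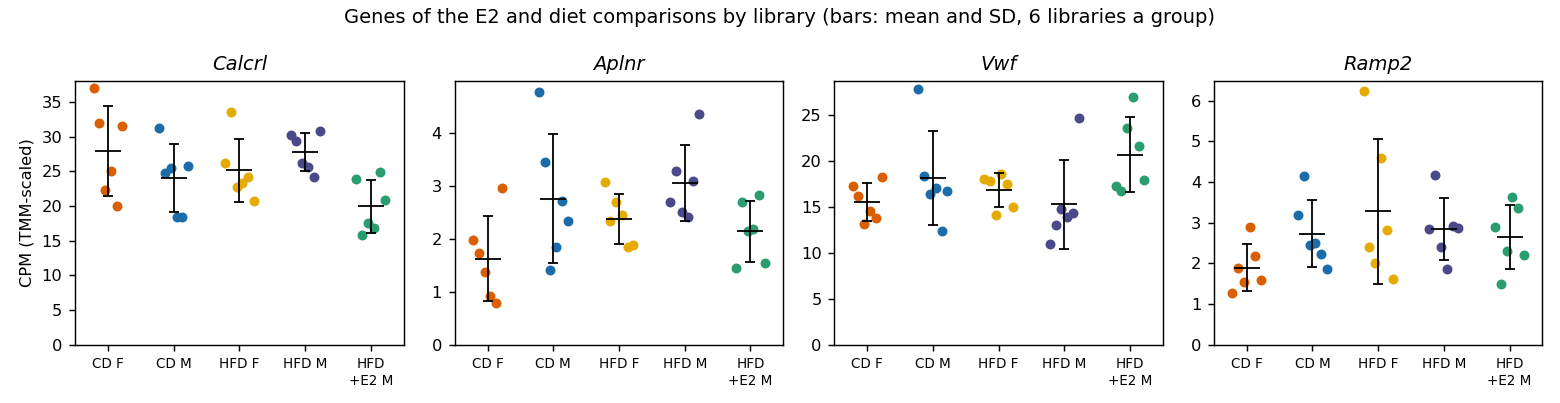
CPM of Calcrl, Aplnr, Vwf and Ramp2 in each of the 30 libraries, with the mean and SD of each group of 6. Calcrl and Aplnr are lower in HFD+E2 M than in HFD M, where 5 and 4 of the 6 E2-treated mice lie below every vehicle-treated mouse. A single HFD F library at 6.23 CPM leads the HFD F group for Ramp2.

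The genes were next described by how they varied among mice of 1 group. Group means were removed from log2 CPM, and the 30 libraries were used together. Of 528 pairs of endothelial genes, 398 were positively correlated, with a median Pearson r of 0.20 and a range from -0.45 to 0.84. With the mean of the other 32 genes, r was over 0.5 for 15 genes. The highest values were 0.81 for Pecam1 (Spearman rho 0.80, r 0.78 without the 2 farthest libraries), 0.81 for Mmrn2 (0.77 and 0.77) and 0.79 for Podxl (0.70 and 0.69). Cdh5 and Flt1 had lower values, 0.50 (0.37 and 0.23) and 0.51 (0.46 and 0.37), and for Cdh5 in particular the relation leaned on 2 libraries. At the other end were Sox17 (-0.18, rho -0.23, -0.13), Clec14a (-0.15, rho -0.20, -0.24), Prox1 (-0.03, rho -0.07, -0.14) and Pdpn (0.15, rho near 0, -0.21). Clec14a had 135 to 412 counts a library and Sox17 3 to 30. These points share libraries, and the values are descriptions.

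The mean of the 33 genes varied with the mean of the 49 other endothelial genes (r 0.82, rho 0.79, r 0.76 without the 2 farthest libraries, n = 30). With smooth muscle genes, r was -0.14 (rho -0.16, r -0.13) and with fibroblast genes 0.22 (rho 0.15, r 0.23), although both lists were lower together with the endothelial genes in CD F. With B cell genes r was 0.48 (rho 0.52, r 0.41), with T cell genes 0.55 (rho 0.60, r 0.53) and with macrophage genes 0.41 (rho 0.31, r 0.39). Of the lists given here, the value was highest for the other endothelial genes, and the values were not compared by a test. B cell genes went the other way between CD F and CD M. For the share of mitochondrial counts, r was -0.28 (rho -0.21, r -0.05).

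**Figure D5:**
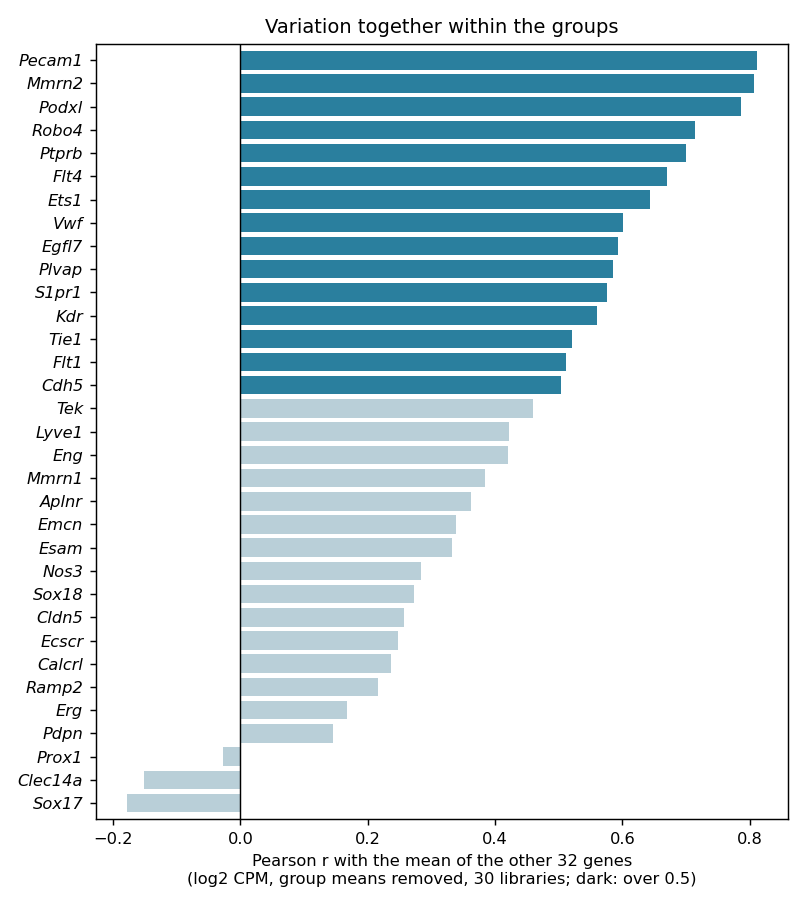
Pearson r of each endothelial gene with the mean of the other 32 over 30 libraries, on log2 CPM with group means removed. Dark bars mark the 15 genes over 0.5, led by Pecam1, Mmrn2 and Podxl, and the lowest bars, Sox17, Clec14a and Prox1, are below 0.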

How the data were processed

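Total RNA of colon tissue of 30 mice was depleted of ribosomal RNA, made into stranded libraries and read as 2 x 51 bases. For RNA isolation, the methods of the study name frozen distal tissue of the colon and its epithelial layer. The authors mapped the reads to GRCm38 with STAR and deposited raw counts per gene from featureCounts, without normalization, and TPM values from StringTie. Per the labels and methods used here, bcl2fastq 2.19.1.403 and Trim Galore were also run, while the strand setting of the counting is not given. In a GENCODE annotation, exons of 7 of the 33 genes overlap exons of other genes (Ramp2, Egfl7, Nos3, Sox17, Prox1, Ecscr and Eng). Counts of these genes are less certain. The spans of Cdh5, Cldn5, Plvap, Clec14a, Mmrn2, Robo4, Ptprb and Lyve1 in that annotation differ from those in the deposited data. Overlaps in the counting itself may therefore differ. Groups came from the titles and the labels.

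Counts were fitted for each comparison on its own 12 libraries (24 for the interaction) with edgeR 4.0.16 in R 4.3.3, using filterByExpr, TMM and a robust quasi-likelihood fit with its F-test, adjusted by Benjamini-Hochberg over all genes tested. DEGs passed p under 0.05 before adjustment together with a fold change beyond 0.4 on the log2 scale, up or down; whether the p-value of the study was adjusted is not given in its methods. Standard errors follow from the F statistic. CPM values used TMM over all libraries, and log2 CPM a prior count of 2. TPM was used to compare levels of different genes. Coordinates are those of the deposited tables (GRCm38).

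All 33 genes could be named. Library values are given for those that passed either rule, and genes of other lists are named where the adjusted p-value was under 0.05, at most 6 a comparison. The 33 genes, the 13 marker lists (175 genes, 173 found) and the tests were chosen with earlier results of these data known. The lists that are not described with the results were as follows on CD. Adipocyte genes had a median log2 fold change of 0.31 with 1 DEG in 7 tested, enteric neuron and glia genes -0.07 with 1 in 10, T cell genes 0.38 with 1 in 4, macrophage genes -0.26 with 3 in 10, and stratified squamous genes 0.18 with 1 in 3, while 1 red blood cell gene could be tested (0.84, no DEG).

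Alternatives were DESeq2 1.42.0, its size factors, no filter, a minimum of 10 counts in each library, a joint fit of the 30 libraries, a replicate block, marker scores as covariates, limma 3.58.1 on log2 of TPM plus 0.1 or 1 (with a mean of at least 0.1 TPM, or no filter), and each library left out. The fits were tested on counts simulated from the CD libraries. Reads carried no molecular identifiers, and the number of counts sets the precision of low genes. Values of 6 biological replicates a group stood behind each comparison. Nothing in the labels gives a sequencing batch.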

Additional observations from a re-analysis of the deposited data

Results flagged for a closer look

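A single library stood apart from the other 5 of its group in 6 of 165 cases (33 genes in 5 groups), where the gap to its neighbour passed the critical share of the group range for 6 samples in the test of Dixon. Chance alone marks about 1 in 20 groups. In CD M, replicate 2 was the highest for Plvap, at 7.97 CPM against 3.47 to 4.07 in the other 5 (gap 0.809 of the range), and for Eng, at 10.7 CPM against 6.30 to 7.31 (0.723). The same library was the one without which the DEGs between the sexes on CD went from 15 to 9. In CD M, replicate 1 was the lowest for Prox1, at 4.20 CPM against 5.98 to 7.31 (0.635). In CD F, replicate 5 was the lowest for Flt4, at 6.85 CPM against 9.53 to 10.9 (0.716), and replicate 2 the lowest for Sox17, at 0.237 CPM against 0.789 to 1.09 (0.757), where 3 counts lay behind the value. In HFD M, replicate 6 was the highest for Vwf, at 24.8 CPM against 11.0 to 14.7 (0.637), which sets the overlap of Vwf with the E2-treated males.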

How the results depend on the processing

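Across 575 alternative fits of the 24 calls of single endothelial genes, 447 kept the call, 128 lost it and 0 changed direction. Of the 24 fits each, the adjusted call on CD was kept in 18 for Flt1, 12 for Cdh5 and 11 for Lyve1.

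Between the sexes on CD, adjusted calls numbered 6 with the replicate number as a block, and 0 with any covariate (smooth muscle, B cell or fibroblast score) and on each TPM scale. They ranged from 1 to 6 when 1 library was left out. DEGs numbered 9 with the smooth muscle score and 0 with the fibroblast score, which did not overlap between the sexes. With 1 library left out, DEGs ranged from 9 to 17. Between the sexes on HFD, adjusted calls numbered 1 with DESeq2 or with all 30 libraries in one fit and 2 with the smooth muscle score. DEGs numbered 9 with the smooth muscle or the B cell score, 8 on TPM plus 0.1 with or without a filter, 3 on TPM plus 1, and 5 to 10 without 1 library.

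With E2, DEGs numbered 5 with all 30 libraries in one fit and on TPM plus 0.1 with or without a filter, 1 with the smooth muscle or the fibroblast score, and 1 to 5 without 1 library. On each TPM scale 25 genes were below 0. For HFD in females, DEGs numbered 2 with the block or the smooth muscle score, 4 with the fibroblast score, 0 with the B cell score or on each TPM scale, and 0 to 2 without 1 library. Genes below 0 numbered 7 with the smooth muscle score, 8 on each TPM scale and 7 to 16 without 1 library. For HFD in males, DEGs numbered 1 with the B cell score and 0 to 4 without 1 library. For the interaction, DEGs numbered 1 with at least 10 counts in every library, 2 with the smooth muscle score, 4 with the B cell score and 0 to 4 without 1 library, and genes below 0 numbered 7 to 17. The cause of these moves was not tested.

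The labels do not say that replicate numbers pair the mice, and in no comparison was every same-number correlation over 0.1. These ran from -0.14 to 0.51 (median 0.28) between the sexes on CD, and from -0.25 to 0.37 in the other comparisons. The libraries that correlated best with their own number were 4 of 6 between the sexes on CD, with HFD in males and with E2, 1 between the sexes on HFD and 0 with HFD in females. With the block, DEGs lower with E2 numbered 1 instead of 2, and adjusted calls among all genes were 941 instead of 435 on CD, 12 instead of 3 with HFD in females, 7 instead of 1 with E2, 2 instead of 0 with HFD in males and 1 instead of 0 for the interaction.

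Over all alternatives, adjusted calls among all genes ranged from 13 to 941 between the sexes on CD, 1 to 50 on HFD, 0 to 38 with E2, 0 to 215 with HFD in females, 0 to 26 in males and 0 to 7 for the interaction. DEGs among all genes ranged from 575 to 2260, 361 to 1165, 457 to 1982, 386 to 1496, 284 to 1056 and 395 to 1543 in the same order.

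On TPM plus 0.1, the median of all genes moved by -0.11 on the log2 scale between the sexes on CD, where 28 of 33 endothelial genes were below that median. Of all DEGs, 372 of 2046 were higher in CD F on this scale, against 439 of 1366 on counts, and for the interaction 983 of 1157 were positive, against 586 of 818. Depth limits Sox17 and Sox18 most, with at most 30 and 12 counts a library.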

Other observations

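The ligands of these receptors were chosen for mention after their values were seen. Angpt2, the angiopoietin that opposes Tie2 signaling, was a DEG lower in CD F than in CD M (-0.58, SE 0.22, adjusted p = 0.204) and lower in HFD M than in CD M (-0.53, SE 0.19, adjusted p = 0.741), 2 comparisons that share the CD M libraries. Slit3, a ligand of the ROBO receptors, was a DEG lower in CD F than in CD M (-0.49, SE 0.15, adjusted p = 0.0926). Edn1, the vasoconstrictor endothelin-1, was a DEG lower in HFD M than in CD M (-0.81, SE 0.29, adjusted p = 0.745). None of these passed the adjusted threshold in edgeR.

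Notch3, also chosen after its values were seen, is the Notch receptor of pericytes and smooth muscle. It was a DEG lower in CD F than in CD M (-0.72, SE 0.18, adjusted p = 0.0421) and a DEG higher in HFD F than in HFD M (1.04, SE 0.43, adjusted p = 0.872), in comparisons that share no library. Its interaction of sex and diet was 1.77 (SE 0.48, unadjusted p = 0.00106, adjusted p = 0.410), so the difference between the diets did not pass the adjusted threshold. Between HFD F and HFD M, pericyte and mural genes had a median of -0.01, smooth muscle genes -0.13 and stratified squamous genes 2.45. The part of these cells in the Notch3 values was not tested.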
